A study of Mus musculus with 12 samples.

Results

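The comparison described here sets Non-SMC#1 against Non-SMC#2, 2 mouse lung tumor cell lines that grow attached and that the study classes as non-metastasizing. Both were derived from small cell lung cancer (SCLC) of Rb1 L/L Trp53 L/L mice, in which Cre delivered to the lung by an Ad-CMV-Cre adenovirus deletes the tumor suppressor genes Rb1 and Trp53, so this deletion is shared by every library. The study sorted the cells by surface protein, calling NCAM low CD44 high cells non-SMC and NCAM high CD44 low or negative cells SMC (SCLC metastasizing cells). All lines have a mixed C57Bl/6, Balb-c and S129 background, were untreated and were cultured in RPMI1640 with serum. RNA was sequenced from 3 libraries of each line, and 3 libraries each of SMC#1 and SMC#2 complete the series of 12. The submitters' design text describes SMC and non-SMC as paired, in 2 pairs, which the line numbers are taken to mark, and what the members of a pair share is not stated. The study's data statement ties these libraries to SMC-Ctrl and SMC-TAZ-4SA cells, in conflict with the sample labels, which were followed here. Whether the libraries of a line are separate cultures is stated nowhere in the sources used, so p-values measure only the spread between these libraries. Neither is it stated from which animals the lines came, nor whether each is 1 clone. The rule of selection took every row of the gene table with at least 1 FPKM (fragments mapped to a gene, scaled by its transcript length and by the total of the library) in at least 3 of the 6 non-SMC libraries, which left 11414 of 24458 rows. The rule named no direction and no size of difference, but it is not independent of them. Each line has 3 libraries, so a row under 1 FPKM throughout 1 line passed only through the other line. For such rows the direction was fixed by the filter, and the counts of list members below include them.

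Epithelial cells are held together by E-cadherin and tight junction proteins, rest on a laminin-rich basement membrane and carry keratin filaments. In the epithelial to mesenchymal transition, transcription factors of the ZEB, SNAI and TWIST families repress such genes, and vimentin, fibrillar collagens and fibronectin appear. The change is often partial, and in SCLC the attached, CD44-positive cells are known as a non-neuroendocrine state.

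Before the results, the libraries themselves were compared. An estimate from single-transcript genes put the depth of the 6 libraries at about 28600000 to 42100000 fragments, and the deposited FPKM summed to between 363103 and 427958. Spearman correlations over the rows tested were 0.976 to 0.997 within a line and 0.879 to 0.887 between lines. The 3 Non-SMC#1 libraries lay close together, with a median SD of 0.0515 on the log2(FPKM + 1) scale, whereas the 3 of Non-SMC#2 spread more, with a median SD of 0.153. A second principal component holding 5.39% of the variance separated Non-SMC#2 replicate 1 (20.9) from replicate 3 (-18.8), against 91.2% on the component that separated the lines. Across 11342 genes with an annotated transcript, the deviation of replicate 1 from its line mean had a Pearson r of -0.52 with log2 transcript length, and that of replicate 3 had an r of 0.54 with GC content. These are correlations across genes of 1 library, and genes are not replicates. The difference between the lines itself had an r of 0.00031 with GC content and 0.066 with length.

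The targeted genes are given first. Rb1 was under the filter, with 0.954, 0.931 and 0.982 FPKM in Non-SMC#1 and 0.754, 0.742 and 0.738 FPKM in Non-SMC#2, against means of 3.86 and 3.05 in SMC#1 and SMC#2. Trp53 stood at 3.70, 2.94 and 3.47 FPKM in Non-SMC#1 and 3.60, 3.46 and 3.03 FPKM in Non-SMC#2 and did not pass the test (log2 difference 0.00 ± 0.10, adjusted p = 0.99). A value for a whole gene does not separate deleted from retained exons, so neither checks the deletion. The genes of the sorting markers did not pass the test between the lines. Cd44 was 78.5 ± 2.65 FPKM in Non-SMC#1 and 85.9 ± 2.99 FPKM in Non-SMC#2 (SD, n = 3 libraries each here and below; adjusted p = 0.21), against 0.204 and 0.141 FPKM in the SMC lines. Ncam1 mRNA was at 50.9 ± 1.51 FPKM in Non-SMC#1 and 45.6 ± 4.13 FPKM in Non-SMC#2 (adjusted p = 0.17, or 0.0189 in limma with GC and length trends removed), beside means of 37.2 and 33.4 FPKM in the SMC lines. Of 8 neuroendocrine markers, 7 were under the filter in both non-SMC lines, and Ncam1 was the exception. None of the 6 endothelial, 3 basal or 6 erythroid markers passed the filter, and of the immune markers Cd68 alone did.

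The lines differed over much of the transcriptome. With limma on log2(FPKM + 1) and Benjamini-Hochberg adjustment, 6203 of 11414 rows (54.3%) passed an adjusted p of 0.05, 2832 (24.8%) higher in Non-SMC#1 and 3371 (29.5%) higher in Non-SMC#2. At a difference of 2-fold or more on that scale, 706 rows (6.19%) were higher in Non-SMC#1 and 909 (7.96%) in Non-SMC#2, together 14.1%. After quantile normalization the counts were 798 and 785, and after median-ratio scaling 757 and 873. Over rows of at least 5 FPKM in 3 libraries they were 496 and 504. The excess toward Non-SMC#2 thus depends on the kind of scaling and on the filter. These shares are the background against which each list below is read. A 4-fold difference was passed by 198 and 304 rows, and a 16-fold difference by 24 and 53. The median log2 difference of all rows, Non-SMC#1 minus Non-SMC#2, was -0.048. In the text below a positive log2 difference means a higher level in Non-SMC#1, each is given ± its standard error, and folds are ratios of mean FPKM.

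**Figure D1:**
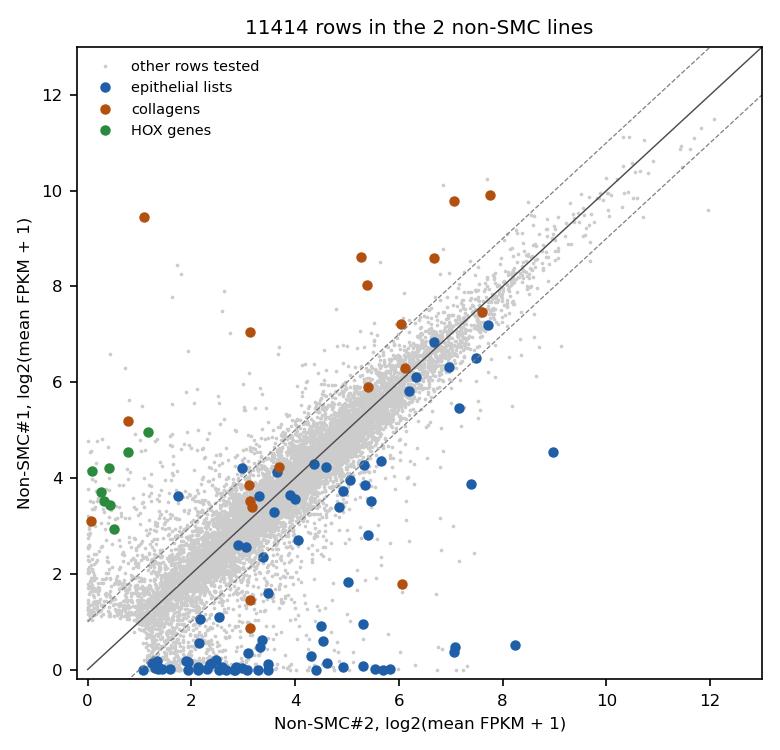
Mean level of each of the 11414 rows in Non-SMC#2 (horizontal axis) and Non-SMC#1 (vertical axis), as log2(mean FPKM + 1). The solid line marks equal levels and the dashed lines a 2-fold difference; members of the 4 epithelial lists (blue) lie mostly below the diagonal, many near 0 in Non-SMC#1, while the 8 HOX genes that passed the filter (green) lie to the left.

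Non-SMC#2 expressed simple-epithelial keratins that were close to 0 in Non-SMC#1. Krt18, whose protein pairs with keratin 8 in the filaments of simple epithelia, had the largest difference toward Non-SMC#2 on the log2(FPKM + 1) scale (mm9 chr15:101858647-101862457). Its levels were 0.291, 0.517 and 0.469 FPKM in Non-SMC#1 and 319.9, 276 and 308 FPKM in Non-SMC#2, a 708-fold higher mean (log2 difference -7.73 ± 0.10, adjusted p = 2.24e-09). Krt8, the partner gene, was at 0.373, 0.529 and 0.253 against 137, 127 and 141 FPKM (log2 difference -6.62 ± 0.10). The libraries of the lines did not overlap for either gene, as was true of 64.1% of all rows (29% with Non-SMC#1 above and 35.1% with Non-SMC#2 above). In bulk RNA, fewer cells that express a gene and less RNA per cell cannot be told apart. Krt19, a keratin of simple and ductal epithelia, stood at 0.199, 0.443 and 0.241 FPKM against 145, 114 and 140.3 FPKM. Krt7 was present in both lines, at 13.7 ± 1.22 FPKM in Non-SMC#1 and 167 ± 12.7 FPKM in Non-SMC#2. Of the 48 keratin genes named Krt in the table, 8 passed the filter, and 7 of these were 2-fold or more higher in Non-SMC#2 and 0 in Non-SMC#1. Krt8, Krt18 and Krt19, under 1 FPKM in every Non-SMC#1 library, passed the filter only through Non-SMC#2, which fixed their direction.

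Junction genes followed the same direction in most cases. Of 38 tested members of the junction list (12 more were under the filter), 26 were called at 2-fold or more higher in Non-SMC#2 and 1 in Non-SMC#1, with a median log2 difference of -1.47. Cdh1, which encodes E-cadherin, the adhesion receptor of epithelial adherens junctions, was at 0.124, 0.312 and 0.188 FPKM in Non-SMC#1 and 17.02, 19.2 and 20.2 FPKM in Non-SMC#2 (log2 difference -4.03 ± 0.10, adjusted p = 2.36e-08). Epcam, an epithelial adhesion molecule, was at 0, 0.0176 and 0 against 53.9, 40.98 and 41.6 FPKM. All 3 Non-SMC#2 libraries lay above all 3 Non-SMC#1 libraries for both genes. The claudin genes encode the strands that seal tight junctions. Cldn4 was at 0, 0.0206 and 0 FPKM in Non-SMC#1 and 55.7, 53.4 and 59.2 FPKM in Non-SMC#2, and Cldn3 and Cldn7 were listed at 0 in every Non-SMC#1 library and reached 44.96 to 54.8 and 17.7 to 22.8 FPKM in Non-SMC#2. Rab25, a small GTPase of epithelial recycling endosomes, was likewise listed at 0 in Non-SMC#1 and reached 9.37 to 11.1 FPKM in Non-SMC#2. Among desmosome and tight junction genes, Dsp (desmoplakin) ranged over 0.00326 to 0.00364 FPKM in Non-SMC#1 and 3.15 to 4.32 FPKM in Non-SMC#2, and Jup (plakoglobin) over 2.37 to 2.72 and 24.7 to 39.9 FPKM.

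The cytoplasmic parts of the junction were present in both lines and differed less. Ctnnb1, which encodes beta-catenin, was 145 ± 2.47 FPKM in Non-SMC#1 and 211 ± 4.71 FPKM in Non-SMC#2 (log2 difference -0.53 ± 0.08). Ctnna1, for alpha-catenin, was 89.6 ± 2.99 and 177 ± 1.75 FPKM (log2 difference -0.98 ± 0.08), and Tjp1, for the scaffold ZO-1, 14.6 ± 0.932 and 32.2 ± 5.68 FPKM. The 1 junction gene 2-fold higher in Non-SMC#1 was Inadl, a scaffold of the Crumbs polarity complex, at 11.2 ± 0.360 against 2.37 ± 0.405 FPKM (log2 difference 1.87 ± 0.10).

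Regulators of epithelial genes were mostly higher in Non-SMC#2. Of 15 tested epithelial regulators (9 more were under the filter), 13 were called at 2-fold or more higher in Non-SMC#2 and 1 in Non-SMC#1. Some, such as Esrp1 and Cdx2, were under 1 FPKM in every Non-SMC#1 library and passed the filter only through Non-SMC#2. Esrp1, the splicing factor that sets epithelial exon choice, was listed at 0 in the 3 Non-SMC#1 libraries and at 4.99, 5.12 and 5.99 FPKM in Non-SMC#2. Its relative Esrp2 had means of 0.138 and 2.70 FPKM. Grhl2, a transcription factor of epithelial genes, was at 0, 0 and 0.0133 against 1.38, 1.78 and 1.91 FPKM, a low level in either line (log2 difference -1.42 ± 0.09). Elf3 and Klf5, further epithelial transcription factors, had means of 0.462 and 10.5 FPKM in Non-SMC#1 and 3.45 and 43.04 FPKM in Non-SMC#2. Cdx2, an intestinal factor, was listed at 0 in every Non-SMC#1 library and reached 5.09 to 7.24 FPKM in Non-SMC#2. Foxa2, a pioneer factor of endoderm, was 0.150 ± 0.0221 FPKM against 4.56 ± 0.141 FPKM, but its paralog Foxa1 did not pass the test (8.78 ± 0.819 against 11.1 ± 1.58 FPKM, adjusted p = 0.0617). Foxa1 did pass without Non-SMC#2 replicate 1 (log2 difference -0.41, limma adjusted p = 0.00419). The exception toward Non-SMC#1 was Tfap2a, a factor of neural crest and surface ectoderm, at 17.4 ± 0.798 against 6.91 ± 1.53 FPKM. Nkx2-1, the lineage factor of lung, was near the floor in both lines, at 1.24 ± 0.0926 and 0.473 ± 0.176 FPKM, against 90.8 and 226 FPKM in the SMC lines.

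Genes of basement membrane adhesion and of epithelial proteolysis were higher in Non-SMC#2. Of 19 tested keratin and basement membrane genes, 16 were 2-fold or more higher in Non-SMC#2 and 0 in Non-SMC#1. Itga6, the alpha 6 chain of the laminin receptors, was at 0.434, 0.563 and 0.564 against 20.6, 24.3 and 21.96 FPKM, and its hemidesmosome partner Itgb4 was at 0.0837 ± 0.0172 against 4.16 ± 1.48 FPKM. Lamb3, for a chain of an epithelial laminin, was at 0.523 ± 0.0337 and 9.27 ± 1.73 FPKM, and Lama5, a chain of epithelial and endothelial laminins, at 6.05 ± 0.169 and 41.6 ± 22.7 FPKM. All 8 tested genes of the epithelial serine protease list (6 more were under the filter) were 2-fold or more higher in Non-SMC#2. Members under 1 FPKM in every Non-SMC#1 library, such as Spint2 and St14, passed the filter only through Non-SMC#2, which fixed their direction. Spint2, an inhibitor of membrane-anchored serine proteases, was at 0.0363, 0.0321 and 0.0656 against 40.6, 33.2 and 41.4 FPKM (log2 difference -5.23 ± 0.10), and St14, which encodes the protease matriptase, was listed at 0 in Non-SMC#1 and reached 6.45 to 8.64 FPKM in Non-SMC#2. Wfdc2, a secreted small inhibitor of airway epithelium, was expressed in both lines, at 20.6, 22.95 and 23.8 FPKM and 588, 429 and 476 FPKM.

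**Figure D2:**
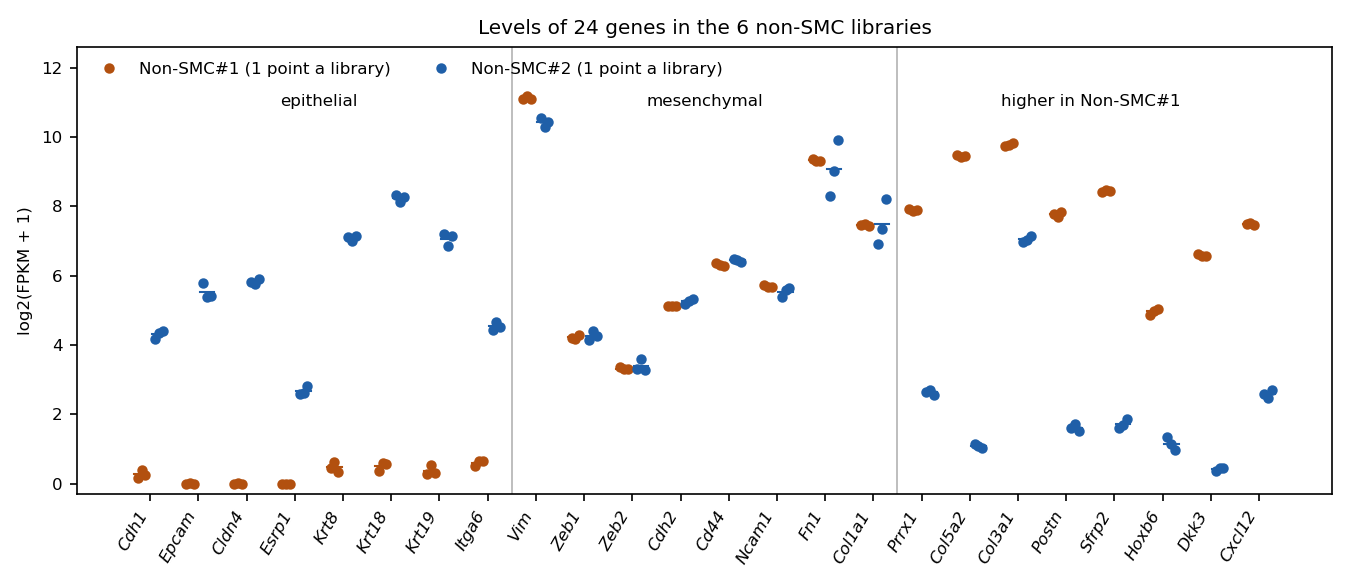
Level of 24 genes in each of the 6 non-SMC libraries, on the log2(FPKM + 1) scale; points are libraries and short lines the mean of 3. At the left, 8 epithelial genes lie under 1 for Non-SMC#1 but above 2 for Non-SMC#2. The 8 selected genes in the middle, mostly mesenchymal, differ in mean by less than 1, and the 8 at the right are higher in Non-SMC#1. The middle genes do not stand for all mesenchymal genes. Of 26 tested in that list, 9 were 2-fold or more higher in Non-SMC#1, with 4 going the other way.

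The sequences before the start sites of junction genes with large differences are shown because ZEB and SNAI proteins bind the E-box CACCTG. This E-box was searched on both strands as CACCTG or CAGGTG. The 250 bases before each RefSeq start (build GRCm38.p6) are given 5′ to 3′ on the strand of the gene, with E-boxes in capitals. Of 39 regulator and junction genes called at 2-fold or more higher in Non-SMC#2, 23 had an entry in the promoter table, and the 4 with the largest difference are printed with every start listed for them.
Cldn4, chr5:134946935-134947184, minus strand: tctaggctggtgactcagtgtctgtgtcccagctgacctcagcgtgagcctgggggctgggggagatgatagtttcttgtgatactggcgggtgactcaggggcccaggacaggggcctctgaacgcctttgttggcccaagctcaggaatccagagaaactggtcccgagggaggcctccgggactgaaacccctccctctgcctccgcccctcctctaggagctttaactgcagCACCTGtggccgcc
Cldn3, chr5:134985964-134986213, plus strand: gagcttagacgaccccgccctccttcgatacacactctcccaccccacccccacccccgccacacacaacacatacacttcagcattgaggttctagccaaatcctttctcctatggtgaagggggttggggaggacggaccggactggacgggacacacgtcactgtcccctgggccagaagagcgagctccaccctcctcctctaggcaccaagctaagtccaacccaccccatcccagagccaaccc
Epcam, chr17:87635729-87635978, plus strand: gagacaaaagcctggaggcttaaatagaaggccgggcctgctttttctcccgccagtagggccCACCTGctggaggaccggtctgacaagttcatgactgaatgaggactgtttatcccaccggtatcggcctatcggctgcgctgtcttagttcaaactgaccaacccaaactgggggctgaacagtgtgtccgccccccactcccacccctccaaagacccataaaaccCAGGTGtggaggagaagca
Cldn7, first start, chr11:69964529-69964778, plus strand: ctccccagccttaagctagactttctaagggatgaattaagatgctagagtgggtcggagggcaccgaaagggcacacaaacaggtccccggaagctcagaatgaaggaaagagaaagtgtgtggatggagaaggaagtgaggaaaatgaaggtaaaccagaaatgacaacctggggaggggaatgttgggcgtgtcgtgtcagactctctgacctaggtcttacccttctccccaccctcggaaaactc
Cldn7, second start, chr11:69965171-69965420, plus strand: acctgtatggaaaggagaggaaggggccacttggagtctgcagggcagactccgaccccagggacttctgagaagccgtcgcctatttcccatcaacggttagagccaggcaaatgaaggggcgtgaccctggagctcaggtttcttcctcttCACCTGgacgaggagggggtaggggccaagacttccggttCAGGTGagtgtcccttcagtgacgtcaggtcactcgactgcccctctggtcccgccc

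Cldn4 held 1 E-box, beginning 14 bases before the start. Epcam held 2, at 187 and 19 bases before it. The second start of Cldn7 held 2, at 97 and 57 bases before it, and Cldn3 and the first Cldn7 start held 0. At least 1 E-box was found for 12 of the 23 genes (52.2%), against 17.2% of the 8585 tested genes with an entry and 19.4% of all 27025 genes of the promoter table. Among genes called at 4-fold or more, 57 of 204 higher in Non-SMC#2 (27.9%) and 16 of 126 higher in Non-SMC#1 (12.7%) held one. A gene counted if any of its listed starts held an E-box, so genes with more starts had more windows. The 23 genes came from lists chosen with earlier results known and were kept for their direction. List members not higher in Non-SMC#2 were not counted, so these shares do not compare like sets. A match is a description of these letters in this window, and no binding was measured. Whether E-boxes bear on the difference between the lines was not tested.

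The ZEB, SNAI and TWIST genes did not divide the lines the way their epithelial counterparts did. Zeb1, a repressor of E-cadherin and other epithelial genes, was at 17.6, 16.9 and 18.7 FPKM in Non-SMC#1 and 16.8, 19.99 and 18.1 FPKM in Non-SMC#2 and did not pass the test (log2 difference -0.04 ± 0.09, adjusted p = 0.70). Zeb2 was at 9.20, 8.82 and 8.89 and 8.97, 11.1 and 8.61 FPKM (log2 difference -0.08 ± 0.10, adjusted p = 0.56). The libraries of the lines overlapped for both. A missed threshold does not show that the lines are alike. Snai2 was higher in Non-SMC#1, at 44.8 ± 0.651 against 22.1 ± 1.01 FPKM (log2 difference 0.99 ± 0.07), and Snai1 was higher in Non-SMC#2, at 4.86 ± 0.601 against 22.1 ± 5.81 FPKM (log2 difference -1.96 ± 0.17). Twist1 was 37.1 ± 1.24 and 25.96 ± 1.30 FPKM and Twist2 24.9 ± 1.36 and 45.5 ± 4.23 FPKM, so the paralogs passed the test in opposite directions. The exception in size was Prrx1, a homeobox gene of limb and craniofacial mesenchyme. It was at 240.1, 233 and 239 FPKM in Non-SMC#1 and 5.23, 5.47 and 4.91 FPKM in Non-SMC#2, a 45.6-fold higher mean (log2 difference 5.26 ± 0.07, adjusted p = 2.99e-09; mm9 chr1:165175250-165243781). Its paralog Prrx2 was 107 ± 3.41 and 27.1 ± 1.31 FPKM, and Foxc2, a forkhead factor of mesenchyme, 12.4 ± 0.590 and 2.25 ± 0.250 FPKM.

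Both lines carried mesenchymal transcripts at high levels. Vim, the intermediate filament of mesenchymal cells, was at 2202, 2313 and 2195 FPKM in Non-SMC#1 and 1505, 1257 and 1385 FPKM in Non-SMC#2 (log2 difference 0.70 ± 0.12, adjusted p = 0.00163), against 0.0332 and 0.0270 FPKM in the SMC lines. Cdh2, for N-cadherin, was 33.9 ± 0.285 and 37.3 ± 2.17 FPKM and did not pass (adjusted p = 0.18), although it did without Non-SMC#2 replicate 1 (log2 difference -0.17, limma adjusted p = 0.0357). Fn1 (fibronectin) ran from 638 to 657 FPKM in Non-SMC#1 and was at 313, 515 and 966 FPKM in Non-SMC#2, replicate 3 standing above and replicate 1 below all libraries of the other line. Its log2 difference was 0.26 ± 0.35 with all libraries, 0.68 without Non-SMC#2 replicate 3 (limma adjusted p = 0.0295) and -0.13 without replicate 1. Col1a1 had the same order among the Non-SMC#2 libraries, at 119, 162 and 298 FPKM, against 174, 177 and 173 FPKM in Non-SMC#1, and did not pass (log2 difference -0.04 ± 0.29). For both genes the order of the Non-SMC#2 libraries is that of the second principal component (20.9, -2.80 and -18.8), and its part in these values was not tested. Of 26 tested mesenchymal genes, 9 were 2-fold or more higher in Non-SMC#1 and 4 in Non-SMC#2, with a median log2 difference of 0.23.

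Collagen genes were more often higher in Non-SMC#1. Of 20 tested collagen genes, 10 were 2-fold or more higher in Non-SMC#1 and 3 in Non-SMC#2. Col5a2, a chain of collagen V, which seeds and limits collagen I fibrils, had the largest difference toward Non-SMC#1 of all rows tested on that log2 scale (mm9 chr1:45431176-45560127). It was at 709, 688 and 696 FPKM in Non-SMC#1 and 1.21, 1.10 and 1.02 FPKM in Non-SMC#2, a 629-fold higher mean (log2 difference 8.37 ± 0.07, adjusted p = 1.06e-09). The other collagen V chain of common fibrils, Col5a1, was 148 ± 5.06 and 65.2 ± 16.1 FPKM (log2 difference 1.21 ± 0.17). Col3a1, the chain of collagen III, was at 859, 871 and 902 and 126, 131 and 140.4 FPKM. Col1a2 was at 956, 990.1 and 933 and 209, 203 and 235 FPKM (log2 difference 2.15 ± 0.10), unlike its partner chain gene Col1a1 above. The 3 tested chains of collagen VI, a microfibril of the pericellular matrix, were all higher in Non-SMC#1, with means of 387, 259 and 132 FPKM for Col6a1, Col6a2 and Col6a3 against 101, 40.7 and 7.79 FPKM. Col11a1 and Col2a1, chains known from cartilage, ranged over 33.8 to 36.3 and 7.49 to 7.75 FPKM in Non-SMC#1 and 0.571 to 0.884 and 0.0296 to 0.0559 FPKM in Non-SMC#2. The 3 collagens higher in Non-SMC#2 were Col18a1, a basement membrane collagen (2.42 ± 0.176 against 65.3 ± 12.4 FPKM), Col7a1, the anchoring fibril collagen of epithelia (0.836 ± 0.0542 against 7.77 ± 0.584 FPKM), and Col5a3 (1.72 ± 0.169 against 7.72 ± 1.27 FPKM).

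The enzymes that mature collagen were mostly higher in Non-SMC#1, with a large exception. Of 23 tested processing genes, 18 were called higher in Non-SMC#1 and 4 in Non-SMC#2, or 9 and 3 at 2-fold or more. Lox, the lysyl oxidase that crosslinks collagen, was 439 ± 5.63 and 115 ± 6.79 FPKM (log2 difference 1.93 ± 0.09), and the prolyl hydroxylase genes P4ha1 and P4ha2 had log2 differences of 1.03 and 1.32. Serpinh1 encodes HSP47, a chaperone dedicated to procollagen in the endoplasmic reticulum. It was at 0.0720, 0.0321 and 0.0490 FPKM in Non-SMC#1, the line with the higher collagen transcripts, and at 155, 155 and 165 FPKM in Non-SMC#2 (log2 difference -7.24 ± 0.07, adjusted p = 1.11e-09; mm9 chr7:106493885-106501749). Both SMC lines were also near 0 for it, at 0.0785 and 0.0235 FPKM. Fkbp10, a second chaperone of procollagen, was 0.283 ± 0.162 against 9.01 ± 1.33 FPKM in the same direction. Ppic, the cyclophilin C gene, was listed at 0 in every Non-SMC#1 library and at 152, 131 and 128 FPKM in Non-SMC#2.

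Other matrix and secreted products divided by kind. Of 36 tested matrix glycoprotein and proteoglycan genes, 13 were 2-fold or more higher in Non-SMC#1 and 7 in Non-SMC#2. Postn (periostin, a matricellular protein of periosteum and fibrotic stroma) was at 219, 207 and 227 FPKM in Non-SMC#1 and 2.04, 2.27 and 1.89 FPKM in Non-SMC#2, a 105-fold higher mean. Small leucine-rich proteoglycans went both ways: Bgn (biglycan) was 1104 ± 21.7 and 114 ± 20.8 FPKM and Aspn (asporin) 26.3 ± 2.79 and 0.126 ± 0.0513 FPKM, whereas Dcn (decorin) was 0.287 ± 0.0407 and 27.3 ± 4.66 FPKM. The large proteoglycans Vcan and Acan were higher in Non-SMC#2, Vcan at 10.4 to 12.1 FPKM from 0.325 to 0.350 FPKM in Non-SMC#1 and Acan at 5.87 to 11.6 FPKM from 0.0215 to 0.0524 FPKM. Spp1 (osteopontin), a secreted phosphoprotein of bone and of inflamed tissue, was at 4741, 3682 and 3499 FPKM in Non-SMC#2 against 783, 736 and 816 FPKM in Non-SMC#1. Of the bone genes, Sp7 (osterix, needed for osteoblasts) stood at 9.25 ± 0.432 FPKM in Non-SMC#1 against 0 to 0.123 FPKM in Non-SMC#2, and Tnfrsf11b (osteoprotegerin, a decoy receptor that limits bone resorption) ranged over 17.1 to 20.5 against 0.0689 to 0.177 FPKM. Runx2 and Sox9, which act in bone and cartilage, were expressed in both lines, with log2 differences of 0.55 and 1.03. Of 12 tested genes of the bone and phosphate list, 7 were 2-fold or more higher in Non-SMC#1 and 2 in Non-SMC#2.

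Integrin genes differed in both directions, 3 of 14 tested at 2-fold or more toward Non-SMC#1 and 5 toward Non-SMC#2. Itga11, a receptor chain for fibrillar collagen, was 29.2 ± 0.658 FPKM in Non-SMC#1 and 0.895 ± 0.253 FPKM in Non-SMC#2, and Itga7, a laminin receptor chain of muscle, 23.8 ± 0.994 and 2.98 ± 0.563 FPKM. Itga2, the collagen receptor chain of epithelia and platelets, ran the other way, at 0.0248 ± 0.0148 and 6.83 ± 1.47 FPKM. Of 27 extracellular protease and inhibitor genes, 7 were 2-fold or more higher in each line. Plau (urokinase) was 13.7 ± 1.03 and 77.3 ± 3.74 FPKM, Mmp9 0.0976 ± 0.0332 and 6.77 ± 1.72 FPKM, and the lysosomal cathepsin gene Ctsh was at 0, 0 and 0.0241 against 67.2, 56.4 and 61.9 FPKM. Serpinf1, which encodes the secreted factor PEDF, was at 306, 299.6 and 304 FPKM in Non-SMC#1 and 2.44, 2.47 and 2.57 FPKM in Non-SMC#2.

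**Figure D3:**
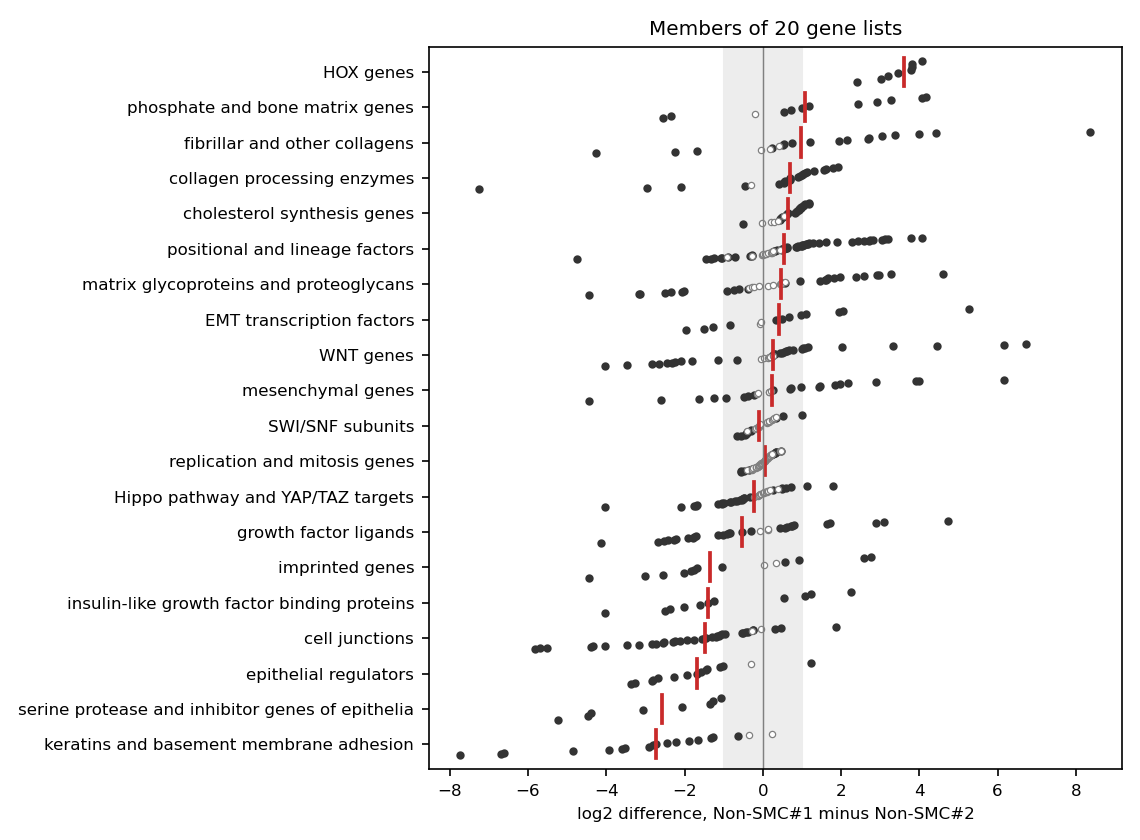
Log2 difference between the lines for every tested member of 20 gene lists, on log2(FPKM + 1); filled points passed an adjusted p of 0.05, open points did not, red lines are list medians and the grey band marks less than 2-fold. The 4 epithelial lists at the bottom lie toward Non-SMC#2, the HOX list at the top toward Non-SMC#1, and the 50 replication and mitosis genes all lie within the band.

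The HOX genes encode homeobox factors that record position along the body axis. Of 39 HOX rows, 31 were under the filter in the non-SMC lines, and the 8 that passed were Hoxb2 to Hoxb9, neighbours in 1 cluster on chromosome 11. Hoxb2 was at 17.5, 16.5 and 16.1 FPKM in Non-SMC#1 and 0.0606, 0.0181 and 0.0802 FPKM in Non-SMC#2 (log2 difference 4.07 ± 0.07, adjusted p = 6.80e-09). Hoxb6 was at 28.4, 30.8 and 31.7 and 1.55, 1.19 and 0.953 FPKM, and Hoxb9 at 22.5, 22.95 and 21.7 and 0.579, 0.814 and 0.724 FPKM. The log2 differences of the 8 ranged from 2.42 (Hoxb4) to 4.07 (Hoxb2), all called and with no overlap between libraries. Hoxb2 and Hoxb9, under 1 FPKM in every Non-SMC#2 library, passed the filter only through Non-SMC#1, which fixed their direction. The SMC lines expressed the cluster too, with means of 53.8 and 56.5 FPKM for Hoxb6 and 26.6 and 25.9 FPKM for Hoxb2, so Non-SMC#2 was the 1 line of 4 with a low level. For Hoxb6 the difference of the line differences, (Non-SMC#1 minus Non-SMC#2) minus (SMC#1 minus SMC#2), was 3.89 ± 0.14 (limma adjusted p = 7.30e-11).

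Other developmental factors leaned the same way. Of 63 tested positional and lineage factors (41 more were under the filter), 22 were 2-fold or more higher in Non-SMC#1 and 6 were higher in the other line. The distal-less genes, which pattern the jaw and limb, were near 0 in Non-SMC#2: Dlx5 was at 14.6, 16.5 and 17.3 against 0.0530, 0 and 0 FPKM, and Dlx6, its neighbour, ranged over 5.70 to 6.73 and 0 to 0.0323 FPKM. Genes of the EYA family of transcriptional cofactors were split, since Eya1 was 15.8 ± 1.02 and 2.11 ± 0.192 FPKM while Eya2 was listed at 0 in Non-SMC#1 and at 22.8, 24.9 and 30.4 FPKM in Non-SMC#2. Gli2, a transcriptional effector of Hedgehog signaling, ranged over 7.81 to 8.21 FPKM in Non-SMC#1 and 0.00723 to 0.0427 FPKM in Non-SMC#2. Shox2 was 14.3 ± 0.903 and 0.107 ± 0.0604 FPKM, and En1, an engrailed homeobox gene, 24.5 ± 0.753 and 2.08 ± 0.405 FPKM. Foxf1 and Foxf2, forkhead factors of lung and gut mesenchyme, were expressed in both lines with log2 differences of 0.49 and -1.03, which are of opposite sign. On the other side, Sox4 was 63.7 ± 1.73 and 179 ± 34.5 FPKM.

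Secreted WNT inhibitors and WNT ligands were divided between the lines. Among 5 tested secreted inhibitors, 3 were 2-fold or more higher in Non-SMC#1 and 0 in Non-SMC#2. Sfrp2, a decoy receptor for WNT proteins, was at 339, 355 and 349 FPKM in Non-SMC#1 and 2.04, 2.25 and 2.65 FPKM in Non-SMC#2, a 150.4-fold higher mean (log2 difference 6.72 ± 0.09, adjusted p = 2.59e-09). Its relative Sfrp1 was at 45.2, 44.2 and 43.96 and 1.08, 0.955 and 1.19 FPKM, and Dkk3, of the dickkopf family, at 97.7, 94.6 and 93.3 and 0.281, 0.375 and 0.373 FPKM. Among 9 tested WNT ligand genes, 6 were 2-fold or more higher in Non-SMC#2 and 1, Wnt5a, in Non-SMC#1. Wnt7b, a ligand of lung epithelium, was at 1.11, 0.983 and 0.965 against 29.2, 30.9 and 37.2 FPKM, and Wnt10a at 3.15, 3.76 and 3.75 against 46.9, 43.9 and 57.8 FPKM. Wnt5a was 13.8 ± 0.331 and 6.09 ± 0.418 FPKM. The nuclear factors Lef1 and Tcf7 were higher in Non-SMC#2, Lef1 at 5.46 to 7.54 FPKM against 0 to 0.0463 FPKM and Tcf7 at 8.44 to 14.7 FPKM against 1.48 to 2.04 FPKM. The receptor gene Fzd1 was higher in Non-SMC#1 (82.1 ± 1.16 against 19.6 ± 1.97 FPKM), and Lgr6, a receptor for R-spondins, was higher in Non-SMC#2 (2.56 ± 0.119 against 16.3 ± 4.24 FPKM). Over the whole list of 37 tested WNT genes, 8 were 2-fold or more higher in Non-SMC#1 and 10 in Non-SMC#2.

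Growth factor ligands differed by family. Among 6 tested ligands of the EGF family, 4 were 2-fold or more higher in Non-SMC#2 and 0 in Non-SMC#1. Areg (amphiregulin) was 13.1 ± 1.10 FPKM in Non-SMC#1 and 45.5 ± 7.31 FPKM in Non-SMC#2, Hbegf 18.1 ± 0.223 and 41.8 ± 4.72 FPKM, and Tgfa ranged over 0.00777 to 0.0316 and 3.12 to 4.70 FPKM. Of 4 tested genes named Fgf, 2 were 2-fold or more higher in Non-SMC#1 and 1, Fgf13, in Non-SMC#2. Fgf7, whose product signals to epithelia, was at 74.7, 70.9 and 70.2 and 8.75, 7.86 and 6.22 FPKM. Fgf10, for the ligand of lung bud outgrowth, was at 9.15, 8.89 and 9.26 and 0.400, 0.251 and 0.442 FPKM. Ptn (pleiotrophin), a heparin-binding factor, was 99.9 ± 3.69 and 2.82 ± 0.573 FPKM (log2 difference 4.73 ± 0.11). Pdgfra and Pdgfrb, which encode the receptors of platelet-derived growth factor on mesenchymal cells, were 20.5 ± 0.962 and 105 ± 1.64 FPKM in Non-SMC#1 and 3.72 ± 0.472 and 38.9 ± 11.6 FPKM in Non-SMC#2, while the ligand genes Pdgfa and Pdgfb were 31.9 ± 0.809 and 5.72 ± 0.260 FPKM in Non-SMC#1 and 111 ± 21.4 and 37.5 ± 3.15 FPKM in Non-SMC#2.

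Genes listed with the insulin-like growth factor binding proteins were mostly higher in Non-SMC#2. All 11 members passed the filter, with 7 at 2-fold or more toward Non-SMC#2 against 3 that went the other way. The list is wider than the binding proteins themselves and holds, for example, Pappa2 (log2 difference 1.08 ± 0.06). Of 7 binding protein genes, 6 were tested and 1 was under the filter. Among the 6 tested, 4 reached 2-fold toward Non-SMC#2, while 2 did so toward Non-SMC#1. Igfbp3 was at 7.36, 6.61 and 6.97 FPKM in Non-SMC#1 and 135, 118 and 138 FPKM in Non-SMC#2, and Igfbp4 and Igfbp7 reached means of 561 and 397 FPKM in Non-SMC#2, from 107 and 69.4 FPKM. Igfbp2 and Igfbp5 went the other way from lower levels, Igfbp2 from 7.98 to 8.79 FPKM in Non-SMC#1 and 0.773 to 1.05 FPKM in Non-SMC#2 and Igfbp5 from 1.27 to 1.41 and 0 to 0.0185 FPKM.

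Chemokine and cytokine genes changed in both directions, with 11 of 45 tested members 2-fold or more higher in Non-SMC#1 and 14 in Non-SMC#2. Cxcl12, the stromal ligand of CXCR4, was at 179, 181 and 174 FPKM in Non-SMC#1 and 5.02, 4.52 and 5.45 FPKM in Non-SMC#2 (log2 difference 4.90 ± 0.08, adjusted p = 5.86e-09). Il11, Il6 and Il1rl1, the gene of the IL-33 receptor, were also higher in Non-SMC#1, with log2 differences of 3.30, 2.35 and 3.05. The neutrophil-attracting Cxcl1 and Cxcl3 were higher in Non-SMC#2, Cxcl1 at 25.4 to 34.04 FPKM against 4.84 to 5.44 FPKM and Cxcl3 at 11.7 to 15.6 FPKM against 0 to 0.181 FPKM. Cxcl16 was 0.656 ± 0.162 and 17.4 ± 1.85 FPKM. Among interferon-related genes, 2 of 42 were 2-fold or more higher in Non-SMC#1 and 4 in Non-SMC#2, a share of 14.3% beside the 14.1% of all rows. Ifitm3, a membrane protein that restricts virus entry, was the largest of these toward Non-SMC#1, at 1231, 1199 and 1194 and 237, 175 and 209.7 FPKM. Of 23 antigen presentation genes 1 was 2-fold or more apart, Calr, the chaperone calreticulin (864 ± 15.9 against 360.1 ± 21.7 FPKM).

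Other surface antigen genes passed the test. Of 27 tested surface genes, 11 were 2-fold or more higher in Non-SMC#2 and 3 in Non-SMC#1. Msln (mesothelin) was at 1.94, 2.06 and 1.95 FPKM in Non-SMC#1 and 100.5, 103 and 109 FPKM in Non-SMC#2 (log2 difference -5.14 ± 0.07), and it was the only 1 of 4 mesothelial markers to pass the filter. Procr, the endothelial protein C receptor gene, was listed at 0 in Non-SMC#1 and at 20.4, 18.6 and 20.5 FPKM in Non-SMC#2, and Tspan8, a tetraspanin, was listed at 0 and at 15.3 to 22.4 FPKM. Ly6a, known as Sca-1, was 44.02 ± 1.11 and 288 ± 59.7 FPKM. Cd200 and Cd34 were higher in Non-SMC#1, at 8.02 ± 0.446 and 42.5 ± 1.17 FPKM against 0.481 ± 0.0817 and 20.1 ± 1.55 FPKM.

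The Hippo effector genes, which the study follows in these cells, were expressed in both lines with smaller differences. Wwtr1, which encodes TAZ, was at 35.4, 33.4 and 36.7 FPKM in Non-SMC#1 and 48.7, 51.03 and 53.9 FPKM in Non-SMC#2 (log2 difference -0.53 ± 0.08, adjusted p = 8.41e-04). Its paralog Yap1 ran the other way, at 51.2, 51.03 and 49.9 and 30.5, 32.9 and 36.6 FPKM (log2 difference 0.59 ± 0.09, adjusted p = 7.30e-04). Their libraries did not overlap between the lines. Tead2, for a DNA-binding partner of both, was 52.9 ± 1.89 and 94.02 ± 4.80 FPKM. Known targets differed in size. Ctgf was 68.05 ± 3.33 and 231 ± 18.8 FPKM (log2 difference -1.75 ± 0.10), Cyr61 was 268 ± 9.69 and 294 ± 40.5 FPKM and did not pass (adjusted p = 0.42), and Ankrd1 had a log2 difference of -0.58 ± 0.16. Of 41 tested genes of the list, 20 were called higher in Non-SMC#2, 7 in Non-SMC#1 and 14 did not pass the test, with a median log2 difference of -0.23. At 2-fold or more, 8 were higher in Non-SMC#2 and 2 in Non-SMC#1.

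Few cell cycle genes differed. Of 50 replication and mitosis genes 0 reached 2-fold and 38 did not pass the limma test, with log2 differences between -0.56 (Kif23) and 0.46 (Foxm1). At an adjusted p of 0.05 with no fold requirement, 7 passed as higher in Non-SMC#1 and 5 as higher in Non-SMC#2. The 27 tested SWI/SNF subunit genes likewise held 0 at 2-fold, with 3 called higher in Non-SMC#1 and 8 in Non-SMC#2. Upstream of the cycle, Ccnd1, the cyclin D1 gene, was 36.9 ± 1.37 FPKM in Non-SMC#1 and 182 ± 1.28 FPKM in Non-SMC#2 (log2 difference -2.28 ± 0.08). Cdkn2a, whose products p16 and p19Arf act above RB and p53, was high in both lines and higher in Non-SMC#1, at 308, 322 and 312 against 186, 126 and 142 FPKM. Myc was 58.1 ± 1.86 and 85.3 ± 12.3 FPKM (log2 difference -0.54 ± 0.11).

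Cholesterol and glycolysis genes were more often higher in Non-SMC#1. Of 27 tested cholesterol synthesis genes, 21 were called higher in Non-SMC#1 and 1 in Non-SMC#2, with a median log2 difference of 0.64, and 5 reached 2-fold, a count that was 8 without Non-SMC#2 replicate 1 and 3 without replicate 2. Fdps, for farnesyl diphosphate synthase, was 28.6 ± 0.622 and 12.2 ± 1.53 FPKM, and Insig1, a sterol-regulated inhibitor of the pathway, 36.5 ± 1.75 and 15.5 ± 1.14 FPKM. Of 32 glycolysis and hypoxia genes, 22 were called higher in Non-SMC#1 and 5 in Non-SMC#2. Slc16a3, which encodes the lactate exporter MCT4, had the largest log2 difference of that list, at 76.02, 79.9 and 77.9 FPKM in Non-SMC#1 and 0.549, 0.660 and 0.735 FPKM in Non-SMC#2 (log2 difference 5.58 ± 0.08, adjusted p = 2.85e-09). Detoxification genes differed in both directions, 5 of 40 at 2-fold or more toward Non-SMC#1 and 12 toward Non-SMC#2. Nqo1, a quinone reductase and classical NRF2 target, was at 0.0565, 0.0502 and 0 FPKM in Non-SMC#1 and 27.8, 23.9 and 25.3 FPKM in Non-SMC#2, and Aldh3a1, an aldehyde dehydrogenase of airway and cornea, was 2.08 ± 0.354 and 66.1 ± 8.49 FPKM.

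A number of genes were at or near 0 in Non-SMC#1 and high in Non-SMC#2. In all, 78 rows were listed at 0 in every Non-SMC#1 library, against 10 in every Non-SMC#2 library. Without such rows, 696 rows were 2-fold or more higher in Non-SMC#1 in place of 706, and 831 in Non-SMC#2 in place of 909. A listed 0 can be a failed estimate, so no fold is given for these. Cyba, a subunit of the NADPH oxidase, was listed at 0 in Non-SMC#1 and at 183, 129 and 139 FPKM in Non-SMC#2. Prl, the pituitary hormone prolactin, was listed at 0 in Non-SMC#1 and in both SMC lines, and was at 128, 97.9 and 91.5 FPKM in Non-SMC#2. All 3 tested genes of the prolactin family were higher in Non-SMC#2, and members of this multigene family can share reads, so their single values are uncertain. Tinagl1, a matrix protein, was at 0.338, 0.398 and 0.287 and 106, 108 and 124 FPKM, and Zfp36l1, which promotes the decay of AU-rich mRNAs, at 0.0385, 0.0229 and 0.140 and 73.03, 72.5 and 90.4 FPKM. The opposite pattern was rarer. Pcp4l1, a relative of Pcp4, was at 27.4, 25.5 and 26.6 FPKM in Non-SMC#1 and 0, 0 and 0.0279 FPKM in Non-SMC#2. Slit3, a guidance ligand, was at 49.3, 48.5 and 48.6 and 0.493, 0.616 and 1.12 FPKM.

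The remaining lists were divided between the lines or close to the background. Of 39 TGF-beta, BMP and activin genes 6 were 2-fold or more higher in each line. Bmp4, a bone morphogenetic protein, was 12.5 ± 0.312 FPKM in Non-SMC#1 and 4.58 ± 0.369 FPKM in Non-SMC#2, while Inhbb, an activin subunit, was 0.122 ± 0.0431 and 7.34 ± 0.687 FPKM. Of 21 Notch pathway genes 2 were higher in Non-SMC#1 and 6 in Non-SMC#2 at that fold, among them Nrarp, a feedback inhibitor of Notch (0.240 ± 0.0732 against 8.86 ± 0.227 FPKM). Of 34 AP-1 and immediate early genes 1 and 6 were, and of 35 axon and synapse genes 5 and 8. The 5 became 3 without Non-SMC#2 replicate 1 and 9 with a pseudocount of 0.1, and the 8 became 5 after quantile normalization. Sema3c, a secreted guidance protein, was 7.65 ± 0.266 FPKM in Non-SMC#1 and 69.1 ± 5.25 FPKM in Non-SMC#2. Of 35 RB, p53 and CDK inhibitor genes 2 were 2-fold or more higher in Non-SMC#1 and 5 in Non-SMC#2, where Gadd45a, a stress-induced p53 target, was at 31.2 ± 5.13 FPKM against 6.52 ± 0.547 FPKM. Of 26 growth factor receptors 6 and 5 passed that fold, with Ntrk3, a neurotrophin receptor, at 8.82 ± 0.652 FPKM in Non-SMC#1 and 0.248 ± 0.0696 FPKM in Non-SMC#2. Of 17 lung epithelial genes 4 and 6 passed it. Cbr2, a carbonyl reductase of lung, was 46.2 ± 2.46 and 3.15 ± 0.627 FPKM. Ribosomal protein genes stayed close, with 19 of 67 called higher in Non-SMC#2, 0 in Non-SMC#1 and 1, Rpl3, at 2-fold (8.50 ± 0.169 against 21.4 ± 1.53 FPKM).

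Imprinted genes, which are expressed from 1 parental allele, differed in both directions. Of 14 tested members (20 were under the filter), 8 were 2-fold or more higher in Non-SMC#2 and 2 were lower, with a median log2 difference of -1.36. Over rows of at least 5 FPKM the count toward Non-SMC#2 was 3 and the median 0.187, and without rows at 0 throughout a line they were 5 and 0.025. The neighbours Snrpn, Ndn and Peg12 of the chromosome 7 domain were listed at 0 in every Non-SMC#1 library and reached 1.91 to 2.47, 2.00 to 2.63 and 4.74 to 5.18 FPKM in Non-SMC#2. H19, a long noncoding RNA, ranged over 0.0948 to 0.254 FPKM in Non-SMC#1 and 2.75 to 3.64 FPKM in Non-SMC#2, and Phlda2, a growth-limiting gene of placenta, over 0 to 0.0896 and 6.41 to 8.69 FPKM. Peg10 and Impact were higher in Non-SMC#1, at 184 ± 3.73 and 29.6 ± 1.46 FPKM against 26.5 ± 5.40 and 4.06 ± 0.390 FPKM.

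Rows were then ordered by position to show where neighbours moved together. By chromosome, the median log2 difference was highest on chromosome 14 (0.35 over 375 rows), chromosome 17 (0.20) and the X chromosome (0.19), and lowest on chromosomes 12 (-0.29), 7 (-0.28), 15 (-0.28) and 5 (-0.26). These medians depend on the scaling, that of chromosome 14 being 0.40 after quantile normalization. Over 10915 runs of 25 neighbouring rows, the 1st and 99th percentiles of the run median were -0.51 and 0.47. The most extreme run lay on chromosome 5 from Dck to Naaa (mm9 chr5:89194038-92707207), with a median of -0.88 and 23 of 25 rows higher in Non-SMC#2, against a median of 0.0043 between the SMC lines, and a median of -0.59 after quantile normalization. On chromosome 14 a run from 9330188P03Rik to Tmtc4 (mm9 chr14:105988766-123382483) had a median of 0.72 with 22 of 25 rows higher in Non-SMC#1. A run on chromosome 15 that ends at Igfbp6 and holds Krt7, Krt8 and Krt18 had a median of -0.69. Xist, the RNA of the inactive X chromosome, was 60.5 ± 2.04 FPKM in Non-SMC#1 and 23.8 ± 5.45 FPKM in Non-SMC#2, and the Y-linked genes Ddx3y, Uty, Kdm5d and Eif2s3y were listed at 0 in all 12 libraries. RNA levels do not show copy number, which was not measured in these files.

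**Figure D4:**
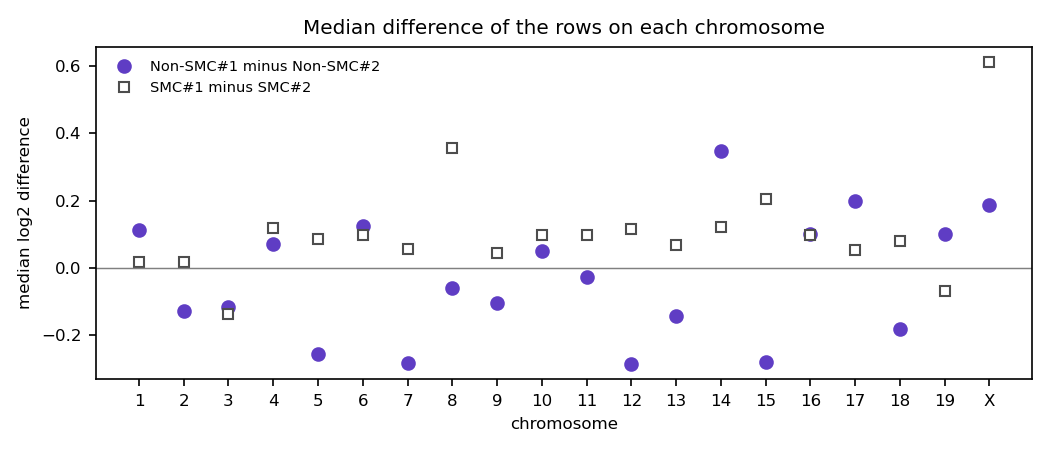
Median log2 difference of the tested rows on each chromosome, Non-SMC#1 minus Non-SMC#2 (filled) and, beside it, SMC#1 minus SMC#2 (open squares). For the non-SMC lines chromosome 14 is highest at 0.35 and chromosomes 5, 7, 12 and 15 lie between -0.29 and -0.26.

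The last comparison set the line difference beside that of the SMC lines with the same numbers. The difference of the line differences passed an adjusted p of 0.05 for 6608 rows (57.9%), and for 2218 (19.4%) at 2-fold or more. A call says that the 2 differences are unequal, in size or in direction. Its median over all rows was -0.16, and under quantile normalization it was 0.016. Of the 1615 rows called at 2-fold or more between the non-SMC lines, 1525 (13.4% of all rows) passed, which their selection on a part of the same difference largely fixed. In the SMC lines alone, 162 of the 1615 were also 2-fold or more apart in the same direction between SMC#1 and SMC#2, and 110 were so in the opposite direction. The Pearson r of the 2 differences across rows was 0.090, and they share no library. Split by direction in the non-SMC lines, 95 of 706 rows higher in Non-SMC#1 and 67 of 909 rows higher in Non-SMC#2 had the same 2-fold direction between the SMC lines.

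**Figure D5:**
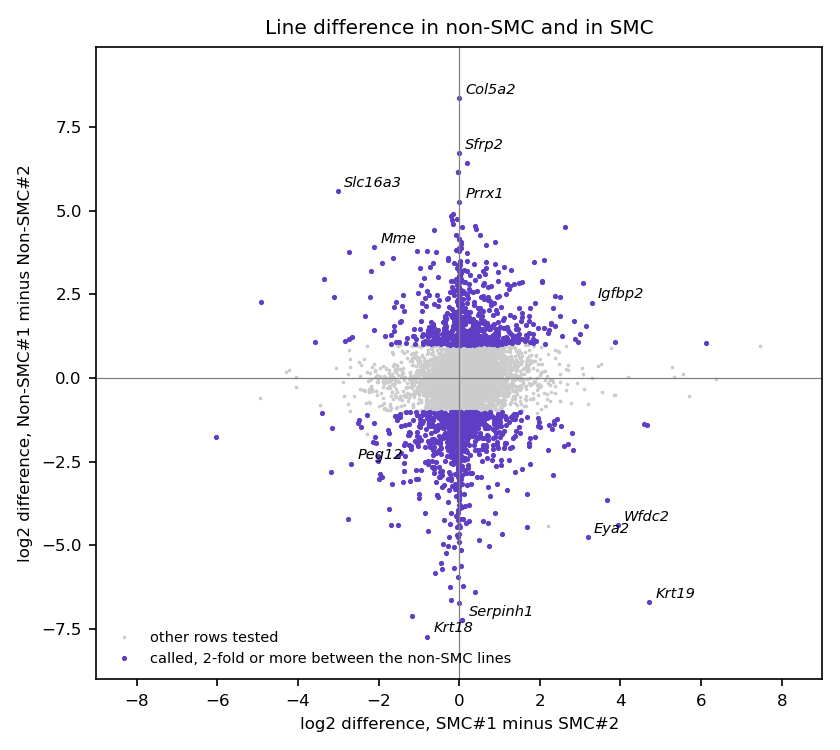
Log2 difference between the SMC lines (horizontal axis) and between the non-SMC lines (vertical axis) for each of the 11414 rows, with rows called at 2-fold or more between the non-SMC lines in purple. The purple rows run mainly along the vertical axis; Krt19, Wfdc2, Eya2 and Slc16a3 lie in the quadrants where the 2 differences have opposite signs.

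The epithelial genes of Non-SMC#2 were in good part also transcripts of the SMC lines. Cdh1 had means of 41.1 and 74.9 FPKM in SMC#1 and SMC#2, Epcam of 198 and 273 FPKM, Krt18 of 103 and 179 FPKM and Esrp1 of 44.0 and 62.3 FPKM. Non-SMC#1 was thus the 1 line of 4 near 0 for these. Other epithelial genes were high in Non-SMC#2 alone of the 4 lines, since in SMC#1 and SMC#2 Cldn4 had means of 0.0496 and 0.595 FPKM, Itgb4 of 0.232 and 0.0693 FPKM and Lamb3 of 0.109 and 0.0284 FPKM. The Non-SMC#1 genes Col5a2, Sfrp2, Postn and Prrx1 all had means under 1 FPKM in both SMC lines. Over all rows tested, 85.3% were at 1 FPKM or more in both SMC lines. For rows called at 2-fold or more the share was 53.1% (375 of 706) where Non-SMC#1 was higher and 47.2% (429 of 909) where Non-SMC#2 was higher.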

How the data were processed

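RNA of 3 libraries of each line was sequenced as paired ends, and the authors deposited 1 table of FPKM values per gene row. The submitters' processing notes name STAR 2.6.1b and DESeq2, and the tool that made the FPKM was not given in the sources used here. Though mm10 is named in those notes, the positions in the table fit mm9, so gene positions are printed as mm9; promoter windows come from RefSeq on GRCm38.p6. Groups follow the sample labels, although the study's data statement names SMC-Ctrl and SMC-TAZ-4SA for these libraries, and 0 columns of other samples were present. A value listed at 0 can be a failed estimate, since 2 of 73 ribosomal protein rows were listed at 0 in all 6 libraries.

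FPKM values were tested on log2(FPKM + 1), a scale that understates the change of low genes, with limma 3.58.1 in R 4.3.3 (moderated test with trend and robust options, two-sided, Benjamini-Hochberg over all 11414 rows), and other steps ran in Python 3.11.15. A row was called at an adjusted p of 0.05. The non-SMC lines were fitted with their 6 libraries, and the difference of differences with all 12. The fit was also run on simulated data with normal noise of the same spread in every line. That run does not hold the unequal spread of the lines or the trends of single libraries, so it does not check the fit under them. Depth was approximated from 2931 single-transcript genes and an assumed fragment length of 300 bases.

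The genes and lists were chosen with earlier results of these data known. Genes were named by rule: the 12 largest differences in each direction among called rows with no overlap and a mean of at least 10 FPKM in the higher line, a list of marker genes, up to 3 members in each direction of each list described, members needed to state a role in a pathway, and genes at the ends of chromosome runs. Some genes that the rule covers are not reported here. Foxm1 and Fgf13 were named after their values were seen. Alternatives were a pseudocount of 0.1, other filters, quantile and median-ratio scaling, a replicate block, no robust option, removal of rows with shared symbols or at 0 throughout a line, a spread from all 12 libraries, and each library left out. A weight for each line and the removal of GC and length trends were added after seeing the data.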

Additional observations from a re-analysis of the deposited data

Results flagged for a closer look

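The difference between the non-SMC lines was unequal to that between the SMC lines, in size or in direction, for 6608 of 11414 rows, where the test of the difference of differences, (Non-SMC#1 minus Non-SMC#2) minus (SMC#1 minus SMC#2), passed an adjusted p of 0.05 in limma. Of the 297 genes named, 269 passed it. Many of them were named for a large difference between the non-SMC lines, a part of the tested contrast, so their selection largely fixed that count. Among the 269, 22 were 2-fold or more apart both between the non-SMC lines and between the SMC lines, in opposite directions. The submitters' design text describes 2 pairs of SMC and non-SMC, which the line numbers are taken to mark.

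Among genes higher in Non-SMC#2 and in SMC#1, Krt19 had the largest difference of differences, -11.4 on the log2 scale (-6.69 between the non-SMC lines and 4.72 between the SMC lines). Wfdc2 followed with -8.33, Eya2 with -7.93, Dcn with -6.13, Akr1c13, an aldo-keto reductase gene, with -5.71 and Inhbb with -5.23. Smaller values of the same sign were found for Enpp1 (-4.31), Dusp4 (-3.94), Cdh6 (-3.64), Sox4 (-3.46), Map2 (-3.15), Gap43 (-3.13), Dusp6 (-2.7) and Ndrg1 (-2.21). Dusp4 and Dusp6 both encode phosphatases induced by ERK signaling.

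Among genes higher in Non-SMC#1 and in SMC#2, Slc16a3 had the largest, 8.6 (5.58 and -3.02). The homeobox gene Nkx6-1 had 7.18, the peptidase gene Mme 6.03, Shox2 4.83 and the protease gene Adamts5 4.63. The interferon-induced Ifitm3 and Ifitm1 had 3.56 and 2.24, and the nuclear receptor gene Nr4a2 had 2.35. What sets these genes apart was not tested.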

How the results depend on the processing

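With rows of at least 5 FPKM in 3 libraries, which are fewer, 504 rows were 2-fold or more higher in Non-SMC#2 in place of 909 and 496 in Non-SMC#1 in place of 706, and 921 negative differences of differences remained in place of 1402. Leaving out 1 library gave 4911 to 7169 called rows, 682 to 761 higher in Non-SMC#1 and 903 to 920 higher in Non-SMC#2 at 2-fold, and 6074 to 7234 called differences of differences, 793 to 857 positive and 1364 to 1448 negative at 2-fold. The positive share of those was 36.8% as deposited, 48.6% after quantile normalization, 44.6% after median-ratio scaling and 47.6% with GC and length trends removed. Of 284 called genes followed, 278 kept call and direction in all 18 alternatives. Ankrd1, Ccna2, Mcm2, Pbrm1 and Pvrl3 lost the call in at least 1. Of genes not called, Cdh2, Fn1, Foxa1, Igf2r, Ncam1, Sparc and Tead1 gained it in at least 1. The share of 2-fold rows higher in Non-SMC#1 was 43.7% as deposited, 50.4% after quantile normalization and 49.6% at 5 FPKM. At 5 FPKM the members 2-fold or more higher in Non-SMC#2 fell in several lists, for example to 6 epithelial regulators, 15 junction genes and 5 epithelial protease genes. Of chromosome medians under other scalings and a pseudocount of 0.1, 22 moved beyond the replicate spread and 38 did not.

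Replicate numbers are not stated to pair libraries of different lines, and the main fit did not pair them. Same-numbered libraries of the lines had correlated deviations of -0.0074, -0.1481 and -0.0305, and with a replicate block 5971 rows were called, 703 and 910 at 2-fold, and 6582 differences of differences, 815 and 1400 at 2-fold.

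Directions turned for 7 genes on the log2 scale. Actb was 0.060 after quantile normalization (adjusted p = 0.513 in limma) against -0.57 as deposited. Col1a1 was 0.013 after median-ratio scaling and ran from -0.33 to 0.33 as single libraries were left out, and Fn1 ran from -0.13 to 0.68. Sparc was -0.029 after quantile normalization. Zeb1 was 0.0047 after median-ratio scaling and ran from -0.098 to 0.020 with single libraries left out, Zeb2 from -0.14 to 0.026 and Trp53 from -0.055 to 0.075. Trp53 was -0.0066 with GC and length trends removed. List medians turned for cytokines (0.014 at 5 FPKM), detoxification genes (0.0033 with the trends removed) and imprinted genes (0.187 at 5 FPKM and 0.025 without rows at 0 throughout a line). The cause was not tested. FPKM keeps no counts, so the precision of low values is unknown.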
